A study of Mus musculus with 17 samples.

Results

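S100a8, S100a9, Csf3r, Cxcr2, Prtn3, Elane, Mpo, Ngp and Camp are 9 genes of neutrophils and their granules, found by gene symbol among the 46073 genes of a liver expression table. All 9 were listed and none was left out. Only 4 of them (S100a8, S100a9, Csf3r and Prtn3) reached a mean of 1 FPKM (fragments scaled to transcript length and library size) over the 17 libraries, the level kept for the test across all genes. In the saline livers Csf3r averaged 0.450 FPKM and Prtn3 0.571 FPKM, so these passed that level through the livers given acetaminophen (APAP). S100a8 averaged 1.07 FPKM and S100a9 1.73 FPKM under saline, over the level but close to it. The count of 4 therefore says nothing of the 9 genes as a whole.

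Neutrophils are short-lived white blood cells that leave the blood for injured tissue and kill microbes with granule proteins and oxidants. Granules are filled in order while the cell matures in the bone marrow: Mpo, Elane and Prtn3 are made for primary granules in early precursors, Ngp and Camp for specific granules later, and S100a8 and S100a9 fill the cytosol of the mature cell. Csf3r receives the growth signal for the lineage and Cxcr2 the chemokine signal that draws mature cells out of the marrow and into tissue. Neutrophils enter the liver after APAP, a painkiller whose reactive product kills hepatocytes around the central vein. Inflammatory monocytes also make S100a8, S100a9 and Csf3r. In whole liver RNA, more cells of a type and more RNA per cell cannot be told apart.

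The mice were male C57BL/6, aged 11 or 12 weeks, and their livers were taken 24 h after the injection. The labels give APAP at 200 mg/kg for 3 WT (Nampt +/+), 3 Het (Nampt +/-) and 2 OE (Nampt OE) liver libraries, and saline for 3 WT, 2 Het and 2 OE libraries. A single OE library had APAP at 300 mg/kg and a single WT library had saline labelled IG. Nampt makes the precursor of NAD from nicotinamide. The labels do not say which promoter drives Nampt in the OE mice or how the +/- allele was made. The labels put perfused livers in lanes 7 and 8 and the others in lanes 4 to 6, so that perfusion and lane cannot be told apart. Perfused were WT saline 1 and 2, both Het saline livers, OE saline 1, Het APAP 1 and OE APAP 2. Numbers within a group are names only, and no label says outright that each library came from its own animal. The p-values therefore measure the spread between these libraries, which may be technical.

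Nampt itself stood at 11.3 to 15.4 FPKM in Het APAP, 36.0 and 18.5 FPKM in OE APAP and 10.9 to 16.7 FPKM in WT APAP. It stood at 26.0 and 23.0 FPKM in Het saline, 22.4 and 27.2 FPKM in OE saline and 15.3 to 17.98 FPKM in WT saline. The libraries labelled Het were thus not lower in Nampt than those labelled WT, and Het, OE and WT are used throughout as the labels of the libraries. The depth of each library was recovered from the steps between low FPKM values. It was equivalent to 5160000 fragments in OE APAP 300, 6890000 in OE APAP 1, 44350000 and 57850000 in Het APAP 1 and 2, and 11870000 to 28840000 in the other 13.

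The promoters of the S100 pair and of the primary granule genes Prtn3, Elane and Mpo are given first, since these genes share a lineage and were measured at very different levels. Each is the 250 bases before and the 50 from the RefSeq start on GRCm38.p6, read along the gene: S100a8 at chr3:90668821-90669120 (plus strand), S100a9 at chr3:90695672-90695971 (minus strand), Prtn3 at chr10:79879417-79879716, Elane at chr10:79886062-79886361 and Mpo at chr11:87793534-87793833 (all plus strand). Capitals mark GAGGAAGT, or ACTTCCTC where it lies on the opposite strand. Its GGAA core is the sequence that ETS factors such as Spi1 (PU.1), a factor needed for myeloid cells, are known to bind.
S100a8: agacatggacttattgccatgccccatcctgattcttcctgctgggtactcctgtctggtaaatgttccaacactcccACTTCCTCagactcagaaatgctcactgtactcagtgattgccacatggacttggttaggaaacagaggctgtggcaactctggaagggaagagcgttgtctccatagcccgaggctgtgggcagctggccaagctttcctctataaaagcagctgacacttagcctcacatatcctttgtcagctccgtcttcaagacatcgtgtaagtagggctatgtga
S100a9: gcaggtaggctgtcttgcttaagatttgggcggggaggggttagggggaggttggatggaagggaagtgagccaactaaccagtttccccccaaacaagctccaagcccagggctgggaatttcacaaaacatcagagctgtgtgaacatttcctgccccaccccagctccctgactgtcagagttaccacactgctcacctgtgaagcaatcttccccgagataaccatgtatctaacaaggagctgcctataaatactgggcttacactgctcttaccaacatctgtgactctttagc
Prtn3: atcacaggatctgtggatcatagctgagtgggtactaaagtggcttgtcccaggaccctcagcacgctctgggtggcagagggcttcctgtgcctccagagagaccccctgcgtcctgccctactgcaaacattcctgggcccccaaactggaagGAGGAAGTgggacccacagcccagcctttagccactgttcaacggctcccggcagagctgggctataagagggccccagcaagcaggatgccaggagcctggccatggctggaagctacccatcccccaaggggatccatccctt
Elane: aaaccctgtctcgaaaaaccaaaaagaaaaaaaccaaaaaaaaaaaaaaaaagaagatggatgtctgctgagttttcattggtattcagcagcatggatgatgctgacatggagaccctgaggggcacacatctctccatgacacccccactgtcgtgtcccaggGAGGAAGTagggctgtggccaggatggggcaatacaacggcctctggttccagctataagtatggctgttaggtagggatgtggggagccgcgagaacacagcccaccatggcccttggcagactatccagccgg
Mpo: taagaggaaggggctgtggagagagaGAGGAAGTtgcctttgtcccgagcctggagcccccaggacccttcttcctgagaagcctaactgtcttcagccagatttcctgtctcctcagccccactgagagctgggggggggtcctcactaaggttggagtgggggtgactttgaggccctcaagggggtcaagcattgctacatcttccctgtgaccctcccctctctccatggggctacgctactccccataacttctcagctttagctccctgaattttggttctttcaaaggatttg
The octamer began 95 bases before the start in Prtn3, 85 before it in Elane and 224 before it in Mpo, and on the opposite strand 172 before it in S100a8. Both strands were searched, and it was in 4 of the 9 windows and in 3.2% of the 32851 promoters of the RefSeq table. The motif TTGCNNAA, a core motif of C/EBP factors, was in 2 of the 9 (S100a9 and Ngp) and in 10.8% of all. TATAAA was in 2 of the 9 (S100a8 and S100a9) and in 13.6% of all. The 3 motifs were chosen with the sequences in view. A match describes the letters and not a bound site, and says nothing of the level of the gene.

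S100a8 and S100a9, the subunits of calprotectin, a calcium- and zinc-binding alarm protein, lie side by side on chromosome 3 (S100a8 at 90668978 to 90670035 and S100a9 at 90692632 to 90695721, GRCm38). S100a8 was at 35.1, 205 and 83.4 FPKM in Het APAP 1, 2 and 3, 1.72 and 28.5 FPKM in OE APAP 1 and 2, and 3.25, 5.64 and 40.8 FPKM in WT APAP 1, 2 and 3. Under saline it was at 1.44 and 1.37 FPKM in Het, 2.19 and 0.104 FPKM in OE, and 0.875, 0.505 and 1.03 FPKM in WT. The 3 Het APAP livers were all high, while 1 WT and 1 OE APAP liver were high and the others were within a few FPKM of saline. OE APAP 1 fell among the saline libraries, and the 7 other APAP libraries at 200 mg/kg lay above every saline library.

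S100a9 followed the same libraries. It was at 37.2, 235 and 108 FPKM in Het APAP, 3.17 and 38.7 FPKM in OE APAP and 3.91, 7.72 and 55.7 FPKM in WT APAP. Under saline it was at 1.15 and 0.462 FPKM in Het, 5.84 and 1.35 FPKM in OE, and 1.13, 1.095 and 1.09 FPKM in WT. The groups overlapped through OE saline 1, which stood above OE APAP 1 and WT APAP 1. The ratio of S100a9 to S100a8 lay between 1.06 and 1.84 in all 8 of these APAP libraries, and between 0.338 and 12.99 in the saline libraries, where both genes are low.

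Csf3r, the receptor of granulocyte colony-stimulating factor (chromosome 4, 126024550 to 126044440), was at 5.13, 4.36 and 7.84 FPKM in Het APAP, 0.507 and 1.21 FPKM in OE APAP and 0.839, 1.82 and 4.94 FPKM in WT APAP. Under saline it was at 0.770 and 0.5002 FPKM in Het, 0.716 and 0.198 FPKM in OE, and 0.208, 0.503 and 0.254 FPKM in WT. OE APAP 1 again lay among the saline libraries and the 7 others above them. Unlike S100a8, Csf3r was lowest of the 3 Het APAP livers in Het APAP 2.

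Cxcr2, the receptor for the chemokines Cxcl1, Cxcl2 and Cxcl5 (chromosome 1, 74153989 to 74161246), was at 1.21, 2.51 and 2.81 FPKM in Het APAP, 0.0501 and 0.481 FPKM in OE APAP and 0.233, 0.560 and 1.88 FPKM in WT APAP. Every saline library stood between 0.0562 and 0.132 FPKM. These values corresponded to 817 fragments over the 8 APAP libraries, of 181920000 in all, and 30 over the 7 saline libraries, of 148220000 in all. Cxcr2 averaged 0.610 FPKM over all 17 libraries and so fell under the level tested.

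Prtn3, proteinase 3, a serine protease of primary granules (chromosome 10, 79874476 to 79883174), took another course. It was at 9.66, 3.16 and 8.07 FPKM in Het APAP, 0.228 and 5.39 FPKM in OE APAP and 7.23, 11.7 and 6.59 FPKM in WT APAP. Under saline it was at 0.539 and 0.0657 FPKM in Het, 1.28 and 0.128 FPKM in OE, and 1.18, 0.448 and 0.357 FPKM in WT. All 3 WT APAP livers were high, including WT APAP 1 and 2, in which S100a9 was at 3.91 and 7.72 FPKM, and Prtn3 was lowest of the Het APAP livers in Het APAP 2, in which S100a9 was highest. The ratio of Prtn3 to S100a9 ran from 0.0134 in Het APAP 2 to 1.85 in WT APAP 1.

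**Figure D1:**
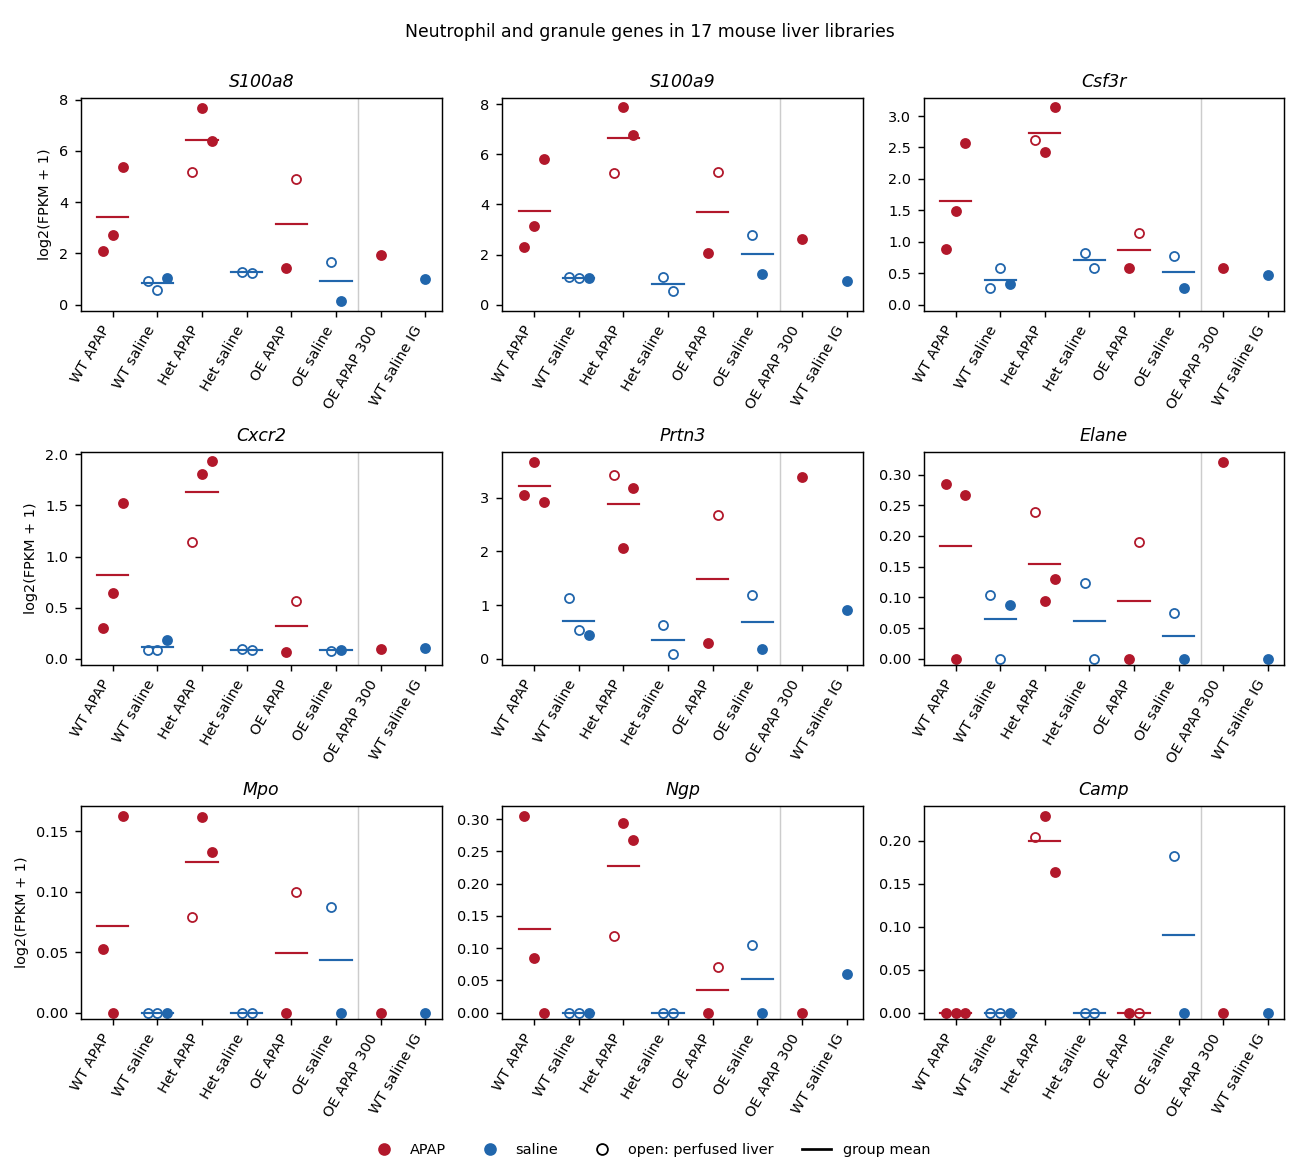
Level of each of the 9 genes as log2(FPKM + 1) in the 17 libraries, 1 panel per gene, with red points for APAP, blue points for saline, open circles for perfused livers and a line at each group mean. S100a8, S100a9, Csf3r and Cxcr2 were high in all 3 Het APAP livers, Prtn3 in all 3 WT and all 3 Het APAP livers, and the vertical scale of Elane, Mpo, Ngp and Camp ends under 0.35.

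**Figure D2:**
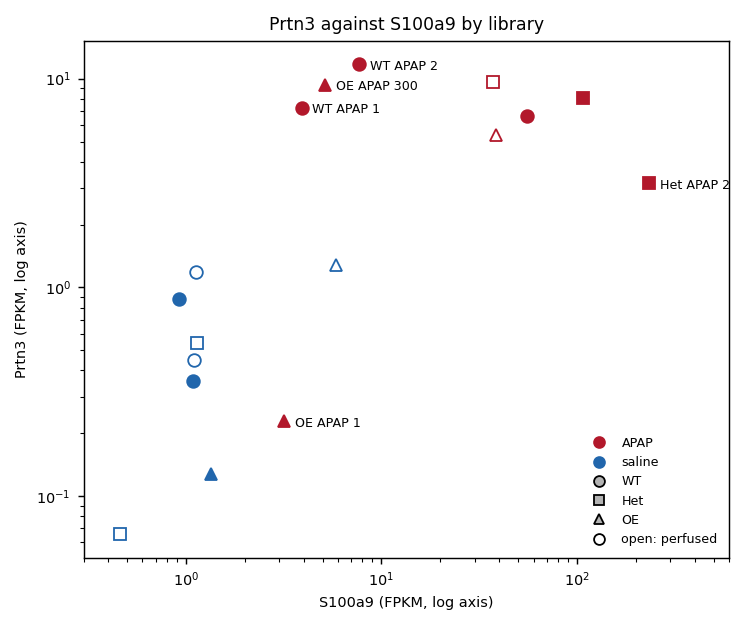
Prtn3 against S100a9 in FPKM, both axes logarithmic, with 1 point per library, colour for drug, shape for genotype label and open symbols for perfused livers. WT APAP 1, WT APAP 2 and OE APAP 300 held 7.23 to 11.7 FPKM of Prtn3 beside 3.91 to 7.72 FPKM of S100a9, and Het APAP 2 held 3.16 beside 235.

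Elane, Mpo, Ngp and Camp stayed at or under 0.25 FPKM in every library. A value of 0 in this table can be a failed estimate, since Alb, the gene of albumin, was listed at 0 in all 17 libraries. Elane, neutrophil elastase, lies next to Prtn3 (chromosome 10, 79886247 to 79888215). It was at 0.180, 0.0678 and 0.0948 FPKM in Het APAP, 0 and 0.140 FPKM in OE APAP and 0.219, 0 and 0.203 FPKM in WT APAP, against 0 to 0.0888 FPKM under saline. Together these were 16 fragments over the 8 APAP libraries and 4 over the 7 saline libraries. In the 6 APAP libraries with any Elane fragment, Prtn3 was 32.5 to 85.2 times as high per length as Elane, a ratio that rests on 1 to 6 Elane fragments per library.

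Mpo, myeloperoxidase, the most abundant enzyme of primary granules (chromosome 11, 87793581 to 87804413), was at 0.0565, 0.118 and 0.0966 FPKM in Het APAP, 0 and 0.0712 FPKM in OE APAP and 0.0373, 0 and 0.119 FPKM in WT APAP. Of the saline libraries only OE saline 1 had any, at 0.0627 FPKM. Ngp, the neutrophilic granule protein (chromosome 9, 110419747 to 110423012), had 26 fragments over the 8 APAP libraries and 2 over the 7 saline libraries, with 4, 14 and 3 in Het APAP 1, 2 and 3. Camp, the precursor of the antimicrobial peptide CRAMP (chromosome 9, 109847379 to 109849617), had 11 fragments in the 3 Het APAP livers, 0 in the 5 other APAP libraries and 2 in the saline libraries, both in OE saline 1. Where a listed 0 stands for a count of 0, it allows up to 3 fragments, which is 0.266 to 0.723 FPKM of Camp in the 5 APAP libraries without a fragment, for counting error only. The values of the Het APAP livers lie under that limit, so that a library at 0 is not set apart from them at this depth.

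**Figure D3:**
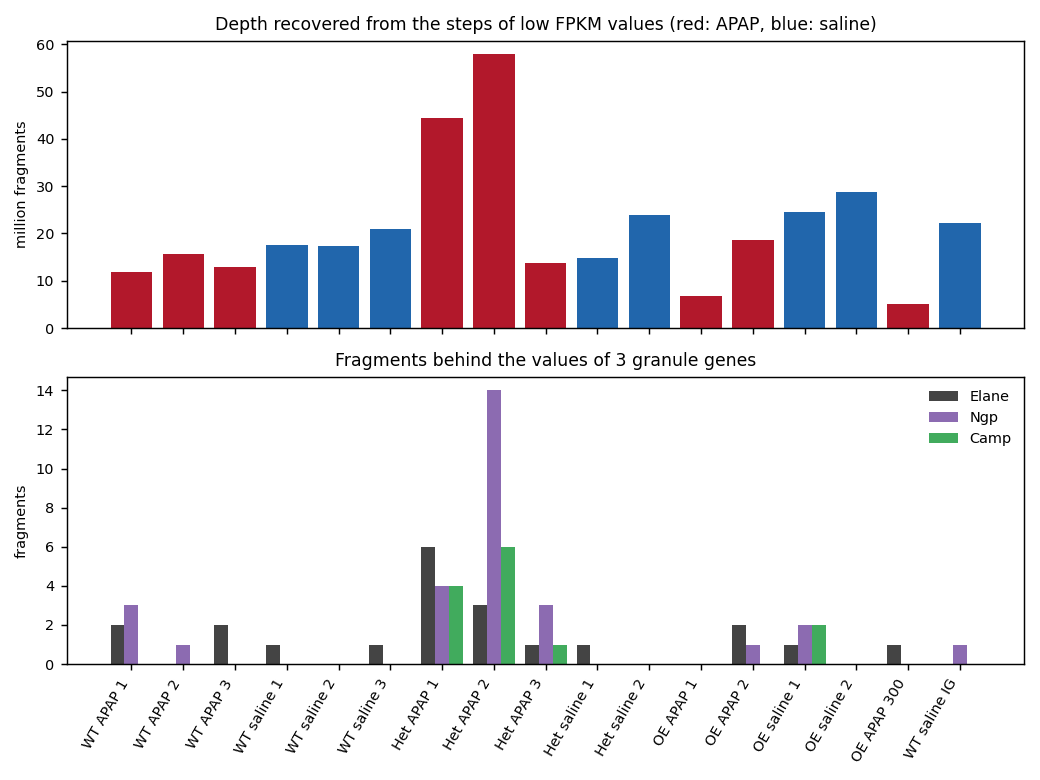
Depth of each library in units of 1000000 fragments (upper bars, red for APAP and blue for saline) and the fragments behind the values of Elane, Ngp and Camp (lower bars), both axes from 0. The deepest libraries, Het APAP 1 and 2, also held most of the Ngp and Camp fragments, and OE APAP 300 and OE APAP 1, the shallowest, held 1 Elane fragment between them.

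The first comparison asked how the genes responded to APAP at 200 mg/kg, averaged over the 3 genotype labels. S100a8, S100a9, Csf3r and Prtn3 all rose. The responses, on the log2(FPKM + 1) scale, which understates the change of low genes, were 3.53 ± 0.82 (SE, adjusted p = 0.016) for S100a8 and 3.58 ± 0.83 (adjusted p = 0.016) for S100a9. They were 1.30 ± 0.26 (adjusted p = 0.0049) for Csf3r and 2.42 ± 0.29 (adjusted p = 0.00055) for Prtn3, all by limma with p-values adjusted over the 11101 genes tested. Of those genes 9.79% were higher at the same threshold. S100a8 averaged 50.4 ± 68.1 FPKM in the 8 APAP livers and 1.07 ± 0.680 FPKM in the 7 saline livers (SD), and S100a9 averaged 61.1 ± 78.4 FPKM under APAP and 1.73 ± 1.83 FPKM under saline. Csf3r averaged 3.33 ± 2.62 FPKM under APAP and 0.450 ± 0.238 FPKM under saline, and Prtn3 6.51 ± 3.63 FPKM under APAP and 0.571 ± 0.481 FPKM under saline. The SD of the S100 pair under APAP exceeded its mean.

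None of the 9 genes had all 8 APAP libraries above all 7 saline libraries, against 0.699% of the 32167 genes above 0 anywhere. S100a8, Csf3r, Cxcr2 and Prtn3 had 7 of the 8 above, and S100a9 had 6. The share of all genes with 7 or 6 of the 8 above was not taken, so these counts describe the libraries only. An exact two-sided permutation test of each gene alone, with drug permuted within genotype label (1200 assignments, smallest possible p = 0.000833, not adjusted), gave p = 0.00167 for S100a8, S100a9 and Csf3r and p = 0.0025 for Cxcr2 and Prtn3. The same exact test gave p = 0.0767 for Elane, 0.0417 for Mpo, 0.05 for Ngp and 0.45 for Camp. It was run on the 9 genes only, so no share of all genes stands beside these p-values. With no level filter, limma left Cxcr2 at 0.77 ± 0.22 (adjusted p = 0.069) and Elane, Mpo, Ngp and Camp at adjusted p of 0.21 to 0.31, while 2.65% of the 32167 genes were higher. With genes kept from a mean of 0.1 FPKM, Cxcr2 passed at an adjusted p of 0.026, where 7.8% of 16686 genes were higher.

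The calls of the S100 pair were lost without OE APAP 2 or OE saline 2, each of which leaves 1 library in its group. They held without any other single library, and Csf3r lost its call only without OE APAP 2. Without OE APAP 2 the averaged response was 2.53 for S100a8 (adjusted p = 0.112), 2.65 for S100a9 (adjusted p = 0.117) and 1.19 for Csf3r (adjusted p = 0.051). Without OE saline 2 it was 3.17 for S100a8 (adjusted p = 0.093) and 3.22 for S100a9 (adjusted p = 0.092). The call of Prtn3 held without each library in turn, at 1.98 to 2.65.

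Perfusion and lane divide the genotype and drug groups unevenly, so the response was also read within the livers of 1 perfusion state. Among livers not perfused, the 3 WT APAP livers exceeded the 1 WT saline liver by 2.38 for S100a8, 2.69 for S100a9, 1.32 for Csf3r and 2.77 for Prtn3 (log2). Among perfused livers, the 1 Het APAP liver exceeded the 2 Het saline livers by 3.91, 4.43, 1.91 and 3.06 for the same genes. The perfused OE pair differed by 3.21, 2.54, 0.36 and 1.49, and the OE pair not perfused by 1.30, 0.83, 0.33 and 0.12. For Cxcr2 the 4 differences were 0.64, 1.06, 0.49 and -0.013. Each of these sets has 1 library on at least 1 side and has no test. The perfusion term itself passed for none of the 4 genes and for 0.054% of all genes. Prtn3 was nearest, at 1.07 ± 0.32 perfused minus not perfused (adjusted p = 0.18).

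By genotype label the responses were uneven in which genes passed. In the livers labelled Het all 4 genes rose: S100a8 by 5.45 ± 1.37 (adjusted p = 0.023), S100a9 by 6.10 ± 1.39 (adjusted p = 0.016), Csf3r by 2.16 ± 0.44 (adjusted p = 0.0058) and Prtn3 by 3.24 ± 0.49 (adjusted p = 0.0019), where 9.04% of genes were higher. In those labelled WT only Prtn3 passed, at 3.22 ± 0.45 (adjusted p = 0.0054), where 1.95% of genes were higher. All 4 had an unadjusted p under 0.05 in limma, a threshold at which no share of all genes was taken. In the WT response S100a8 stood at 2.86 ± 1.26 (adjusted p = 0.22), S100a9 at 2.97 ± 1.28 (adjusted p = 0.21) and Csf3r at 1.39 ± 0.40 (adjusted p = 0.063). In those labelled OE none of the 4 passed, nor did any at an unadjusted p under 0.05, and 0% of genes were higher. Without the level filter 6 of the 9 genes passed in the Het response, where 2.89% of genes were higher: the 4 above, Cxcr2 at 1.45 ± 0.36 (adjusted p = 0.045) and Camp at 0.23 ± 0.042 (adjusted p = 0.016), Camp on 11 fragments against 0 in the 2 Het saline livers. A count of 0 allows up to 0.337 and 0.208 FPKM of Camp in Het saline 1 and 2, for counting error only. The Het APAP livers, at 0.120 to 0.172 FPKM, lie under both limits, so the Camp call does not set them apart from Het saline. The OE values were 2.26 ± 1.36, 1.68 ± 1.38, 0.35 ± 0.43 and 0.80 ± 0.49 for S100a8, S100a9, Csf3r and Prtn3.

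The differences between these responses were tested directly and passed for none of the 4 genes in limma, as for nearly all genes: 0% passed for Het minus WT and for OE minus WT, and 0.018% for OE minus Het. At an unadjusted p under 0.05, 0 of the 4 differed between Het and WT, 1 (Prtn3) between OE and WT, and 2 (Csf3r and Prtn3) between OE and Het. The share of all genes at that unadjusted threshold was not taken. A response that passed under 1 label and not under another was therefore not shown to differ. Without Het saline 2 the Het calls of S100a8 and S100a9 were lost at responses of 5.43 and 5.83 (adjusted p = 0.101 and 0.087), as they were without Het saline 1 at 5.48 and 6.38 (adjusted p = 0.101 and 0.070). With lane in place of perfusion they were lost at 3.91 and 4.43 (adjusted p = 0.18 and 0.15), Csf3r lost its Het call at 1.91 (adjusted p = 0.107), and Prtn3 kept it. That fit left out lanes 6 and 7, and with them all WT saline livers. Its Het response set Het APAP 1 alone against the 2 Het saline livers. The values are therefore those of the perfused Het livers given above and no separate check.

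**Figure D4:**
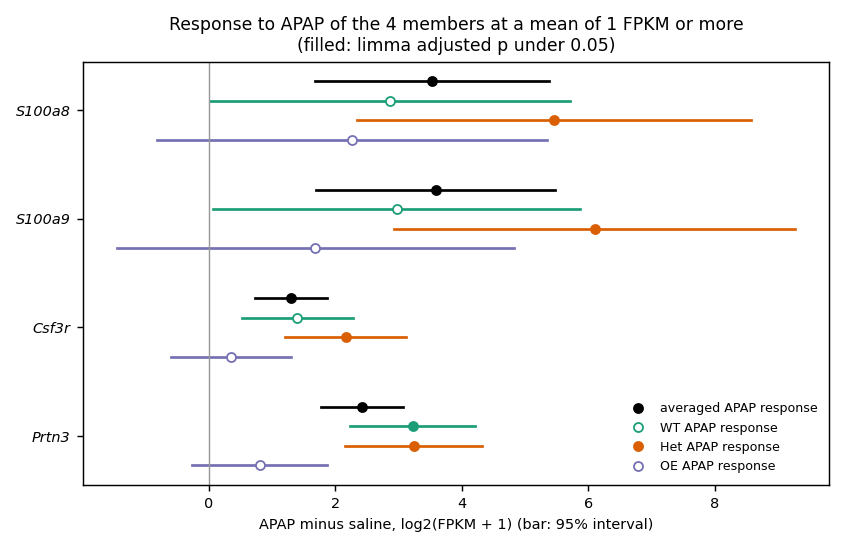
APAP minus saline response of S100a8, S100a9, Csf3r and Prtn3 on the log2(FPKM + 1) scale, averaged and for each genotype label, with 95% intervals from limma and filled points for an adjusted p under 0.05. The Het and WT responses of Prtn3 were 3.24 and 3.22, and the intervals of the OE responses all span 0.

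The genotype labels were next set against each other after APAP. Csf3r fell by 1.90 on the log2 scale in OE APAP relative to Het APAP (SE 0.40, adjusted p = 0.014), at 0.857 ± 0.495 FPKM in 2 OE livers and 5.78 ± 1.83 FPKM in 3 Het livers (SD). Prtn3 fell by 1.58 in the same comparison (SE 0.45, adjusted p = 0.041), at 2.81 ± 3.65 FPKM in OE and 6.96 ± 3.39 FPKM in Het livers, which overlap. There 4.9% of genes were lower. S100a8 was at -3.33 ± 1.25 (adjusted p = 0.11) and S100a9 at -3.02 ± 1.27 (adjusted p = 0.15). Without the level filter Csf3r (adjusted p = 0.045) and Camp, at -0.21 ± 0.038 (adjusted p = 0.028), were lower, as were 1.44% of genes, while Prtn3 did not pass (adjusted p = 0.098); the Camp call sets 0 fragments in the 2 OE livers against 11 in the Het livers, all of whose levels lie under the limit that a count of 0 allows in either OE library. The calls of Csf3r and Prtn3 were both lost without the shallow library OE APAP 1, which leaves 1 OE APAP liver. Csf3r then stood at -1.66, close to its fall of 1.90 above, while Prtn3 moved to -0.68. Prtn3 also lost its call without WT APAP 1, WT saline 1, Het APAP 1, Het APAP 3, either Het saline liver or either OE saline liver, at adjusted p of 0.051 to 0.108. Its difference was -1.25 without Het APAP 3 and -1.72 to -1.57 without each of the others. Its call was lost as well with no perfusion term (adjusted p = 0.16).

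No gene of the 4 passed in Het against WT APAP livers, where 0.054% of genes did. In limma 3 of the 4 had an unadjusted p under 0.05, a threshold at which no share of all genes was taken. They were S100a8 at 2.87 ± 1.15, S100a9 at 2.74 ± 1.16 and Csf3r at 1.01 ± 0.37, with adjusted p of 0.22, 0.25 and 0.17. None passed in OE against WT APAP livers, where 0.00901% of genes did, Prtn3 was at -2.26 ± 0.47 (adjusted p = 0.12) and the other 3 had an unadjusted p over 0.05. Under saline none of the 4 passed between any labels, and none had an unadjusted p under 0.05, while 0.036% of genes passed for Het against WT and for OE against WT and 0.00901% for OE against Het. By group mean S100a8 was highest in Het APAP (108 ± 87.7 FPKM, SD, n = 3), followed by WT APAP (16.6 ± 21.0, n = 3) and OE APAP (15.1 ± 19.0, n = 2), which did not differ beyond their spread, and then by Het (1.41 ± 0.0531), OE (1.15 ± 1.47) and WT saline (0.803 ± 0.270), which did not either. For Prtn3 the order was WT APAP (8.52 ± 2.80), Het APAP (6.96 ± 3.39) and OE APAP (2.81 ± 3.65). Neighbours in that order overlap within their SD. Even so, OE APAP passed as lower than Het APAP in limma (adjusted p = 0.041), a call lost in several of the alternatives given above.

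Prtn3 overlaps Plppr3, a gene on the other strand, and the setting for strand in the counting is not given in the sources used here. Plppr3 stood at 0.182 to 0.653 FPKM in all 17 libraries, under Prtn3 in 6 of 6 WT and Het APAP livers. It was above Prtn3 in Het saline 2 (0.258 against 0.0657 FPKM) and OE saline 2 (0.182 against 0.128 FPKM). Cfd, on the other side of Elane, was at 2.23 FPKM in OE APAP 300 and at most 0.442 FPKM elsewhere. Mpo overlaps the gene Gm11505, and its values are uncertain for that reason too.

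Over the 9 APAP libraries, 300 mg/kg included, the gene whose log2(FPKM + 1) was most like that of S100a8 among the 11093 others was S100a9 (Pearson r = 0.997, Spearman rho = 0.967). It was followed by Arl5c (r = 0.988), Ccl6 (0.977), Slfn2 (0.977) and Klf6 (0.975). Those most like S100a9 were S100a8, Arl5c (r = 0.980), Ms4a6d (0.980), Trem2 (0.977) and Ccl6 (0.973). Those most like Csf3r were Adam8 (r = 0.991), Evi2b (0.991), S1pr2 (0.984), Fam129b (0.982) and Msn (0.981), with S100a8 at place 378. Those most like Prtn3 were Cnp (r = 0.973), Aqp8 (0.950), Glb1 (0.949) and Maoa (0.947), with Csf3r at place 2486, S100a8 at place 3957 and S100a9 at place 4148. Prtn3 came at place 4177 in the order of S100a8 (r = 0.148, rho = -0.033). These are descriptions over libraries that differ in depth and lane.

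The other genes of the pathway came from lists chosen with earlier results of these data known, and were read in the averaged response. There 9.79% of all genes tested were higher, 13.3% were lower and the median was -0.023. A low gene could reach the level tested through the APAP livers alone, so each list is also given without the level filter, where 2.65% of genes were higher, 3.15% were lower and the median was 0.017. Of the 10 primary granule genes 5 were tested and 2 rose. They were Slpi, an inhibitor of elastase, by 2.25 ± 0.48 (adjusted p = 0.0086) and the granule membrane protein Cd63 by 1.77 ± 0.36 (adjusted p = 0.0067). Srgn, the granule proteoglycan, was at 1.12 (adjusted p = 0.060) and Lyz2, lysozyme, at 0.99 (adjusted p = 0.13). The median of the 5 was 1.12. Without the filter the median of all 10 was 0.12, with 2 higher and 1 lower. Serpinb1a, an inhibitor of elastase and proteinase 3, was the lower one, under the level tested and at -0.79 ± 0.20 (adjusted p = 0.050).

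Of the 14 specific and gelatinase granule genes 5 were tested and those 5 rose, with a median of 1.59. Without the filter 6 of the 14 were higher and the median was 0.75. Chil3, at 0.0823 to 0.441 FPKM under saline, and Itgam, at 0.198 to 0.473 FPKM under saline, reached the level tested through the APAP livers. Lcn2, an iron-siderophore binder made in bulk by injured hepatocytes as well as by neutrophils, rose by 6.06 ± 1.07 (adjusted p = 0.0051). Chil3, also made by macrophages, rose by 2.57 ± 0.40 (adjusted p = 0.0021), Hp, a haemoglobin binder secreted by hepatocytes, by 1.59 ± 0.27 (adjusted p = 0.0019) and Anxa1 by 0.98 ± 0.21 (adjusted p = 0.0063). The integrin chain Itgam rose by 1.29. The sixth to pass without the filter was Chil1, at 0.76 ± 0.13 (adjusted p = 0.0098). Ltf, Mmp8 and Mmp9, which like Chil1 are named here after their values were seen, were under the level tested and did not pass without the filter (0.27, 0.74 and 0.79).

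Of the 29 mature neutrophil genes 14 were tested, 7 rose and 1 fell (median 0.64). Without the filter 6 of 28 were higher and 0 lower (median 0.44), 17 had an unadjusted p under 0.05, and 4 of the 8 calls were kept. The 4 with the smallest p were Cxcr4, which retains neutrophils in the marrow, at 1.09 (adjusted p = 0.0022), Csf2rb at 0.64 (0.013), the interleukin 1 antagonist Il1rn at 2.08 (0.016) and Slfn4 at 1.62 (0.017). Those were the 4 kept. The gene that fell was G0s2, a lipase inhibitor also made by hepatocytes. Ly6g, the surface protein that marks mouse neutrophils, was listed at 0 in 13 of the 17 libraries and at most 0.857 FPKM, in WT APAP 3. Of the 6 genes of the phagocyte NADPH oxidase, which makes the oxidant burst, all were tested and 4 rose (median 0.56). Cyba (1.04), Ncf4 (0.66) and Rac2 (0.46) were among them. Without the filter 2 of the 6 were higher, Cyba among them (adjusted p = 0.045).

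Of the 18 attractants and mobilisers 9 were tested, 2 rose and 1 fell (median 0.67), as did 2 and 1 of 17 without the filter (median 0.54), 2 of the 3 calls being kept. Cxcl1, a ligand of Cxcr2, rose by 2.64 ± 0.49 (adjusted p = 0.0049). It was at 47.1, 83.0 and 53.7 FPKM in Het APAP, 35.7 and 186 FPKM in OE APAP, and 8.79, 43.3 and 44.2 FPKM in WT APAP, against 3.54 to 15.4 FPKM under saline. OE APAP 1 was thus above all saline livers for Cxcl1. Its Cxcr2 value rests on 1 fragment, and 3 fragments there would be 0.151 FPKM, above the highest saline library at 0.132 FPKM. At this depth Cxcr2 in OE APAP 1 cannot be placed against the saline livers. C5ar1, the receptor of complement C5a, rose by 0.95 (adjusted p = 0.079 without the filter) and Cxcl12, the ligand of Cxcr4, fell by 0.48. Cxcl2 was at 1.11 (adjusted p = 0.052). Cxcl5 was at most 0.629 FPKM and Csf3, the ligand of Csf3r, at most 0.0852 FPKM.

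Of the 11 adhesion genes for entry into tissue 9 were tested and 6 rose (median 0.64), with Vcam1 at 1.21, Icam1 at 1.29, Itgam at 1.29 and Itgb2 at 0.96. Without the filter 4 of the 11 were higher (median 0.72), and Itgb2 was not among them (adjusted p = 0.061). Of the 8 genes listed as receptors of S100a8 and S100a9 or as partners of these receptors, 6 were tested and 3 rose (median 0.36): Cd14 (1.38), Ly96 (0.78) and Myd88 (0.48). Without the filter 0 of the 8 passed in limma, with adjusted p of 0.096, 0.082 and 0.094 for these 3, and 5 had an unadjusted p under 0.05 (median 0.36). Tlr4 itself was at 0.23 (adjusted p = 0.34) and Ager stayed at or under 0.318 FPKM. Of the 11 granulopoiesis factors 7 were tested, and Stat3 (0.94) and Irf8 (0.65) rose while Cebpa and Cebpe fell by 0.92 and 0.67. Cebpa is also a hepatocyte factor. Without the filter 2 of the 11 were higher and 2 lower, and Irf8 did not pass (adjusted p = 0.058). Of 9 other S100 genes 7 were tested: S100a4 (2.42), S100a11 (2.19) and S100a6 (1.84) rose and S100a13 fell by 0.63, and all 4 calls were kept without the filter.

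Markers of other cells moved beside these genes, and their part in the results was not tested. Of 15 monocyte and macrophage markers 13 were tested and 8 rose, with a summed level of 244 to 610 FPKM in the 8 APAP livers and 223 to 410 FPKM in the 7 saline livers. Of these Chil3, Cd14 and Lyz2 also stand in the lists above, and neutrophils share several others. A large part of each saline sum was F10, which did not rise (-0.24, adjusted p = 0.26 in limma). F10 was at 172.9 and 166.4 FPKM in Het saline, where the list summed to 273.9 to 320.0 FPKM. In Het APAP it was at 140.2, 95.70 and 90.79 FPKM. The sums therefore follow F10 as well as the markers that rose. Neither the sums nor F10 are read here as a level of monocytes or macrophages. Of 12 Kupffer cell markers 0 passed in limma and 2 had an unadjusted p under 0.05, at 146 to 385 FPKM under APAP and 195 to 346 FPKM under saline. Of 6 tested erythroid genes 2 fell, at 54.7 to 1204 FPKM under APAP and 44.5 to 257 FPKM under saline. Of 11 tested hepatocyte genes 5 fell, at 9758 to 22543 FPKM under APAP and 21401 to 28511 FPKM under saline. These sums leave out albumin, whose gene was listed at 0. Of 8 platelet genes only Pf4 was tested and it did not pass (1.37), of 7 eosinophil genes 1 was tested and did not pass, and of 8 stem and progenitor genes 3 were tested and 1 rose. Of 3 cholangiocyte genes tested 2 rose, and of 8 endothelial genes 1 rose and 1 fell. Of 8 stellate genes 2 rose and 2 fell. Of 7 B cell genes 2 were tested and 0 passed in limma, with 0 at an unadjusted p under 0.05, and none of the 10 T and NK cell or the 7 basophil and mast cell genes reached the level tested. Without the filter 7 monocyte and macrophage markers, 2 cholangiocyte and 1 endothelial gene were higher, and 2 hepatocyte, 1 erythroid, 1 stellate and 1 endothelial gene were lower. Among the defining markers, Mcpt8, Epx, Prg2 and Ms4a3 were listed at 0 in 14, 15, 14 and 15 of the 17 libraries.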

How the data were processed

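Liver RNA was sequenced from both ends after a stranded total RNA kit, per the labels' protocols. Per the submitters' processing notes, the authors used bcl2fastq 2.17.1.14 for the reads, TopHat2 2.0.9 to align them to GRCm38.p5, and Cuffdiff with Cufflinks 2.2.1, from which they deposited 1 table of FPKM. The annotation and the strand setting of the counting are not given in the sources used here, and the unit was inferred from the tools and values.

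Values were tested as log2(FPKM + 1) in limma 3.58.1 (R 4.3.3, statmod 1.5.0) with 8 group means, a perfusion term, a trended robust prior, 8 residual degrees of freedom and Benjamini-Hochberg adjustment at 0.05 over the genes whose mean reached 1 FPKM. Genes at 0 throughout a genotype and drug block but at 10 FPKM or more elsewhere were left out as failed estimates (89 genes and 7 neighbours, no member). In limma, shares of all genes were taken at the adjusted threshold only, so counts at an unadjusted p under 0.05 have no share beside them. No count test was run, since FPKM are not counts. Depth was recovered from single-transcript genes, of whose values worth 1 to 10 fragments 92.1% to 95.1% lay within 0.05 of a whole fragment. Any extra scaling by Cuffdiff is unknown, so depths are equivalents. Fragments are given only for the 4 members of which 1 fitted length made every low value whole within 0.08 (Camp on 4 values only). The fit was tested on simulated data.

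The members, lists and tests were chosen with earlier results of these data known. Named were all members, up to 4 genes per list with the smallest p, ligands, receptors and inhibitors tied to a member, and up to 5 genes most like each tested member; some results of these rules are not reported here. Alternatives were other pseudocounts, filters, normalisation, weights, perfusion and lane terms (the lane fit without lanes 6 and 7), pooled rare labels and leaving out libraries.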

Additional observations from a re-analysis of the deposited data

Results flagged for a closer look

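In OE APAP 300, the single OE liver given 300 mg/kg and set against no other group here, S100a8 was at 2.82 FPKM, above the highest saline library (2.19 FPKM in OE saline 1). Prtn3 was at 9.38 FPKM there, above the highest saline library (1.28 FPKM in OE saline 1). S100a9 was at 5.14 FPKM, under OE saline 1 at 5.84 FPKM, and Csf3r lay within the saline range. Cxcr2 was listed within that range too, but on 1 fragment, where 3 fragments would be 0.201 FPKM and above it. The library had the lowest depth of the 17, and its differences were not tested.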

How the results depend on the processing

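No paired analysis was possible because the labels give no replicate numbers that the groups share. The averaged response passed in 4 genes, and in 1 to 4 when each library was left out (1 without OE APAP 2, 2 without OE saline 2). The WT response, 1 gene, passed in 2 with a pseudocount of 0.1, with no perfusion term or with the rare labels pooled, and in 1 to 2 leaving out a library. The Het response passed in 1 gene with lane in place of perfusion and in 2 to 4 leaving out a library, and the OE minus Het response in 0 to 1. Het minus WT after APAP passed in 3 genes with array weights (0 to 1 leaving out a library), and OE minus WT after APAP in 0 to 1. OE minus Het after APAP passed in 1 gene with a pseudocount of 0.1 or no perfusion term, in 0 with lane, without OE saline 2 and OE APAP 1, or without the 2 shallowest libraries (an alternative chosen after seeing the data), and in 0 to 3 leaving out a library. With the rare labels pooled the genes called there changed. S100a8 (-3.67, adjusted p = 0.026) and S100a9 (-3.30, adjusted p = 0.042) then passed in limma, and Prtn3 (-0.77, adjusted p = 0.41) did not. The exact test was run on the 9 genes alone, with no share of all genes to set beside its counts. Of the 9 exact tests, 5 to 8 had p under 0.05 leaving out a library and 0 with perfused livers left out, where the smallest possible p is 0.125. The cause was not tested.

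Values that turned sign were none of them calls. S100a8 and S100a9 in OE minus WT after APAP turned to 2.56 and 2.59 without OE saline 2 and OE APAP 1, 2.88 and 3.20 with lane, and 1.85 and 1.89 without the 2 shallowest libraries, S100a9 to 0.14 with array weights, and ranged from -1.96 to 1.85 and -1.69 to 1.89 leaving out a library. Perfused minus not perfused turned to -1.07, -1.03 and -0.032 for S100a8, S100a9 and Csf3r without OE saline 2 and OE APAP 1, and to -0.36 and -0.33 for the S100 pair without the 2 shallowest libraries, ranging from -0.36 to 1.38 and -0.33 to 1.44 leaving out a library. The OE response ranged from -0.11 to 3.47 for S100a9 and -0.032 to 1.64 for Prtn3. The depth limits Elane, Mpo, Ngp and Camp, which rest on few fragments.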
